A study of Mus musculus with 2 samples.

Results

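The aquaporin genes *Aqp1*, *Aqp2*, *Aqp3*, *Aqp4*, *Aqp5*, *Aqp7*, *Aqp8*, *Aqp9* and *Aqp11* were followed in RNAseq of newborn mouse tongue epithelium. These 9 genes were chosen by name, as water and glycerol channels of epithelium, glands and vessels, out of 21607 protein-coding or untyped entries in the table. Cells carrying a GFP reporter of *Sox2* (genotype Sox2GFP) were isolated enzymatically on the day of birth (P0) from lingual epithelium pooled over pups, and were sorted into a bright population, GFP-high, and a dim population, GFP-low, both of the same genotype, stage and tissue. GFP marks the activity of the *Sox2* reporter and not a single cell type, since taste bud, perigemmal and basal cells of the tongue all carry it at different brightness and some mesenchymal cells carry it dimly. Each population is 1 library, so the differences below have no replicate error and were not tested.

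Aquaporins are membrane channels that let water cross cell membranes, and each subunit of the tetramer forms its own pore. The aquaglyceroporins, *Aqp3*, *Aqp7* and *Aqp9*, also pass glycerol and other small solutes, whereas *Aqp1*, *Aqp2*, *Aqp4* and *Aqp5* are classical water channels. *Aqp8* also carries ammonia and hydrogen peroxide, and *Aqp11* is a distant member of intracellular membranes. In stratified epithelia AQP3 is the channel of the keratinocyte membrane, while AQP1 is best known from vessel walls and red blood cells, and AQP5 from the secretory cells of salivary glands.

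The pore of an aquaporin is lined by a pair of short boxes, classically asparagine-proline-alanine, whose codons are shown in capitals in the stretches of coding sequence below. The boxes themselves are of the classical form in both *Aqp3* and *Aqp1*. A codon that follows the second box separates the aquaglyceroporins from the other members. The stretches are 30 nt each and were read from the GENCODE M21 transcripts, which use the mm10 genome of the files. *Aqp3* and *Aqp1* are the members with the highest expression, *Aqp7* and *Aqp9* are the other aquaglyceroporins, and *Aqp11* has a changed box.
Aqp3 first box (chr4:41094807-41094836, minus strand, exon 3): gcccacttgAACCCCGCTgtgaccttcgca
Aqp3 second box (chr4:41093829-41093858, minus strand, exon 5): tatgccgtcAACCCTGCCcgtgactttgga
Aqp7 first box (chr4:41035599-41035628, minus strand, exon 5): gcccacatgAATGCCGCAgtgactttcacc
Aqp7 second box (chr4:41034801-41034830, minus strand, exon 7): tatgcaatcAACCCATCCcgtgacctgcct
Aqp9 second box (chr9:71122838-71122867, minus strand, exon 5): tgtgccatgAACCCTGCTcgagacctcagc
Aqp1 first box (chr6:55336707-55336736, plus strand, exon 1): gctcacctcAACCCTGCGgtcacactgggg
Aqp1 second box (chr6:55345828-55345857, plus strand, exon 3): tgcggtatcAACCCTGCCcggtcatttggc
Aqp11 first box (chr7:97737673-97737702, minus strand, exon 1): acagctagcAACCCGTGCggcgtgatgatg
In the second box of *Aqp3*, *Aqp7* and *Aqp9* the second codon after the capitals is GAC, which encodes aspartate. The 6 other members have no aspartate codon there. Aspartate at this place is the known hallmark of aquaglyceroporins. In *Aqp7* both boxes differ from the classical form, and in *Aqp11* the third codon of the first box encodes cysteine.

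Expression of the aquaporins was dominated by *Aqp3*. Its expression was 1816 FPKM in GFP-high against 1525 FPKM in GFP-low, where FPKM is a fragment count divided by transcript length and by library size, so that levels of different genes can be compared. *Aqp3* (ENSMUSG00000028435, chromosome 4, 41092722–41098183, minus strand, 6 exons, 292 residues) had rank 50 among all genes in GFP-high and rank 55 in GFP-low. It held 99.7% of the summed FPKM of the 9 aquaporins in GFP-high and 99.3% of it in GFP-low. *Aqp3* was thus among the 55 highest genes of both populations, and its level in GFP-high was 1.19 times that in GFP-low, below 1.5-fold. When both libraries were set to the same FPKM sum (TPM), which lowers every log2 ratio of GFP-high to GFP-low by 0.1, the ratio was 1.11.

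The genes closest to *Aqp3* in level, measured as the distance in log2 FPKM over both libraries among 15927 genes above 0 in both, were *Msrb1* (distance 0.05), *Rplp0* (0.113) and *Selo* (0.139). *Rplp0* encodes a ribosomal stalk protein and had 1819 and 1649 FPKM in GFP-high and GFP-low. *Msrb1* encodes a methionine sulfoxide reductase and had 1817 and 1473 FPKM. *Selo*, which encodes a mitochondrial selenoprotein, had 1665 and 1591 FPKM.

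**Figure D1:**
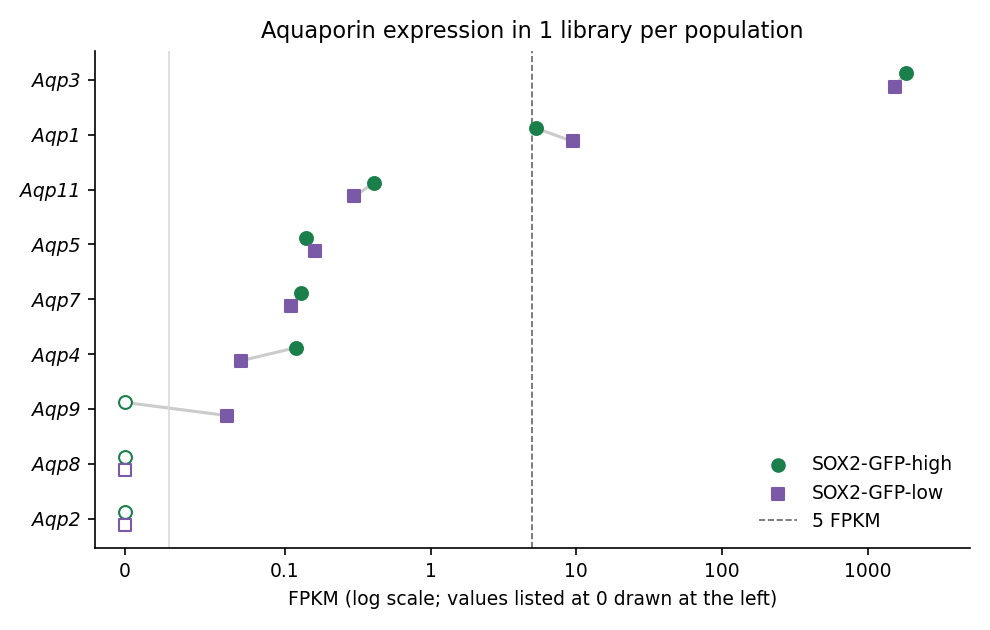
FPKM of the 9 aquaporins (log axis, with values listed at 0 drawn as open symbols at the left) in the GFP-high library (circles) and the GFP-low library (squares), 1 library each. *Aqp3* lies at 1816 and 1525 FPKM, *Aqp1* at 5.28 and 9.43 FPKM just past the dashed line at 5 FPKM, and the other 7 are at 0.41 FPKM or less.

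*Aqp1* was the only other one of the 9 to reach 5 FPKM, and it was higher in GFP-low cells. *Aqp1* (ENSMUSG00000004655, chromosome 6, 55336432–55348555, plus strand, 4 exons, 269 residues) had 5.28 FPKM in GFP-high against 9.43 FPKM in GFP-low, a ratio of GFP-low to GFP-high of 1.79. *Aqp3* exceeded it 344-fold in GFP-high and 162-fold in GFP-low on the FPKM scale. Read counts are not in the table, and the depth behind an FPKM is known only roughly. The labels give 75000000 reads for each library. A scan for steps in the low FPKM, called the stepped depth, was best at about 27250000 reads for GFP-high and 35250000 for GFP-low. Rounding of the FPKM blurs such steps more at larger depths, so the scan cannot decide against the labelled depth. The FPKM of *Aqp1* stands for about 961 reads at the labelled depth or 349 at the stepped depth in GFP-high, and for about 1720 or 807 in GFP-low. By the same distance as for *Aqp3*, the genes nearest to *Aqp1* were *Prx*, the myelin gene periaxin, with 5.21 and 9.16 FPKM, *Rangrf* with 5.45 and 9.31 FPKM, and *Cthrc1*, a secreted collagen repeat protein, with 5.20 and 9.12 FPKM.

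By the rule used here, which asks for 5 FPKM in the higher population and 1.5-fold over the other, 1 of the 9 aquaporins, *Aqp1*, was enriched in GFP-low cells and none was enriched in GFP-high cells. Over all 10760 genes at 5 FPKM or more in either library, 8.9% passed this rule in the GFP-low direction and 9.48% in the GFP-high direction. The study words its own minimum as set on each sample, but its reported numbers of enriched genes lie near those of the rule used here. This rule gave 1020 genes in the GFP-high direction and 958 in the GFP-low direction. With the minimum asked of both libraries there were 777 and 633. With 5 FPKM asked of both libraries the aquaporin counts were again 1 and 0, beside 6.32% of 10016 genes in the GFP-low direction and 7.76% in the GFP-high direction. With 2 aquaporins at 5 FPKM, no share is read from them. The median difference in log2(FPKM + 1) was 0.0258 over the 7 aquaporins above 0, 0 over all 21590 genes with a number in both libraries and −0.0419 over the 10760 at 5 FPKM or more. Only 2 of 9 aquaporins reached 5 FPKM in either library, against 49.8% of all genes. By any amount, 4 of the 9 were higher in GFP-high (*Aqp3*, *Aqp4*, *Aqp7* and *Aqp11*), 3 were higher in GFP-low (*Aqp1*, *Aqp5* and *Aqp9*), and *Aqp2* and *Aqp8* were at 0 in both.

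**Figure D2:**
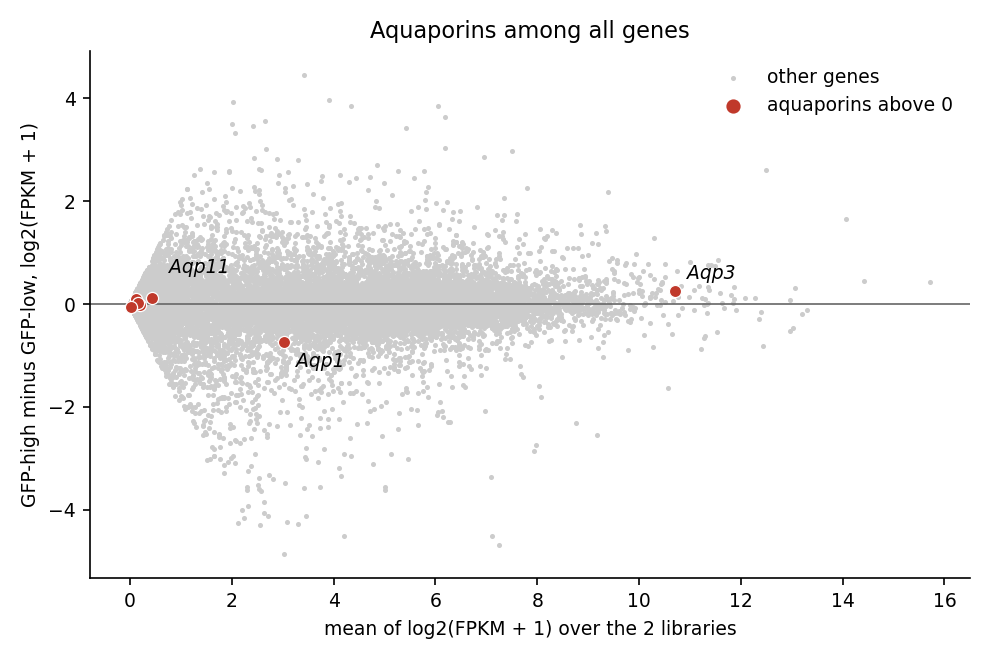
Difference between the populations (GFP-high minus GFP-low, log2(FPKM + 1)) against the mean level for every gene above 0 (grey) and for the 7 aquaporins above 0 (red). *Aqp3* sits at the right with a difference of 0.25, *Aqp1* lies below the line at −0.73, and the other 5 are gathered near the origin.

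The remaining aquaglyceroporins were near the limit of detection. *Aqp7*, the glycerol channel of fat cells (chromosome 4, 41033074–41048139, minus strand), had 0.13 FPKM in GFP-high against 0.11 FPKM in GFP-low. On its longest coding transcript this is about 22.7 and 19.2 reads at the labelled depth, or 8.24 and 9.02 at the stepped depth. Part of the *Aqp7* transcripts, 3.87% of their windows of 50 nt, is found in transcripts of other genes, and reads from these windows cannot be told apart from reads of those genes. *Aqp9*, a channel of liver and neutrophils (chromosome 9, 71110659–71168682, minus strand), was listed at 0 in GFP-high and had 0.04 FPKM in GFP-low, at most about 7.34 reads. AQP9 and AQP7 are the members most like AQP3 in sequence, with 47.9% and 45.2% of aligned residues identical, yet *Aqp3* exceeded *Aqp7* about 13970-fold in GFP-high and 13862-fold in GFP-low on the FPKM scale.

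Other classical water channels had few or no fragments. *Aqp5*, the water channel of salivary acini, had 0.14 FPKM in GFP-high against 0.16 FPKM in GFP-low. On its longest coding transcript this is about 16.8 and 19.2 reads at the labelled depth or 6.09 and 9.01 at the stepped depth. On its shortest it is 2.41 and 3.56 at the stepped depth. *Aqp4*, the channel of astrocyte end-feet and muscle membranes (chromosome 18, 15389496–15410982, minus strand), had 0.12 FPKM in GFP-high against 0.05 FPKM in GFP-low. This ratio of 2.4 is the largest among the members above 0 in both libraries, and with 1 added to each FPKM it was 1.07. It rests on about 43.7 and 18.2 reads at most. The coding transcripts of *Aqp4* range from 453 to 5054 nt. At the stepped depth its values can stand for 0.827 to 15.9 reads in GFP-high and for 0.446 to 8.56 reads in GFP-low. *Aqp4* and *Aqp9* overlap annotated antisense genes, and it is not stated whether counting used the strand. *Aqp2*, the vasopressin-regulated channel of the kidney collecting duct, was listed at 0 in both libraries.

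*Aqp8* (chromosome 7, 123462291–123468004, plus strand) was also listed at 0 in both libraries, so 2 of 9 aquaporins were at 0 beside 19.9% of all genes. A value of 0 can be a failed estimate in a table without counts, although none of 85 ribosomal protein genes was at 0 in either library. *Aqp11*, the distant family member (chromosome 7, 97724006–97738289, minus strand), had 0.41 FPKM in GFP-high against 0.30 FPKM in GFP-low, the highest of the 7 members under 5 FPKM. Its coding transcripts range from 896 to 3737 nt, so at the stepped depth these values can stand for 7.78 to 39.5 reads and for 7.36 to 37.4 reads. AQP11 shared 26.2% of aligned residues with AQP3. The 3 aquaporins of the table outside the chosen 9 were as low, with 0.08 and 0.03 FPKM for the lens channel *Mip*, 0.04 FPKM in both for *Aqp12* and 0 in both for *Aqp6*.

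*Aqp3* and its neighbour in the genome, *Aqp7*, were far apart in level. They are 44.6 kb from each other on the same strand of chromosome 4. The genes around them were expressed in both populations, with 45.7 and 48.4 FPKM for *Nol6*, a nucleolar gene 16.2 kb from *Aqp3*, and 66.8 and 76.3 FPKM for *Nfx1*, which encodes a zinc finger protein, 7.08 kb from *Aqp7*. *Aqp2* (chromosome 15, 99579055–99584547) and *Aqp5* (chromosome 15, 99590782–99594829) are 6.24 kb apart and *Aqp6* follows after 6.57 kb, and none of the 3 exceeded 0.16 FPKM. AQP2 and AQP5 are the most similar pair among the 9 proteins, with 65.8% identical residues. *Racgap1*, a cytokinesis gene 25.7 kb from *Aqp5*, had 114 and 71.8 FPKM.

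Markers of the cell types in which aquaporins are known were measured beside them, and pairs of values give GFP-high first. Basal and general epithelial markers were high in both libraries. All 7 basal keratinocyte markers were at 277.68 FPKM or more, and all 5 general epithelial markers, among them the adhesion genes *Epcam* and *Cdh1*, were at 79.21 FPKM or more in each. *Sox2* was 1.90-fold higher in GFP-high cells, at 112 and 59.02 FPKM, the direction of the sort. Basal markers had a median log2 difference of −0.377 and the 8 suprabasal markers of 0.491, and *Aqp3*, at 0.25, lay between these medians. By log2 difference the suprabasal markers ranged from the keratin gene *Krt4*, at 14203 and 2323 FPKM, to the cornified envelope gene *Ivl*. *Ivl* was low and higher in GFP-low, at 0.67 and 2.19 FPKM. The highest of them in level was the keratin gene *Krt13*, at 30523 and 9738 FPKM.

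Most markers of vessel walls and red blood cells were higher in GFP-high by any amount, while *Aqp1* was higher in GFP-low. Few of these markers reached 5 FPKM, 2 of the endothelial and 3 of the erythroid list. Of 10 endothelial markers 9 were higher in GFP-high cells by any amount, with a median log2 difference of 0.501 and sums of 42.5 and 30.4 FPKM. Of these, *Pecam1*, an adhesion molecule of vessel walls, had 5.31 and 2.38 FPKM, *Cdh5*, the endothelial cadherin, had 4.51 and 2.19 FPKM, and *Kdr*, a VEGF receptor, had 1.30 and 0.73 FPKM. Of the 2 endothelial markers at 5 FPKM or more, *Pecam1* and *Egfl7*, only *Pecam1* passed the rule, and none did on the TPM scale or with 5 FPKM asked of both libraries. Counts of genes higher by any amount include small differences, such as *Esam* at 3.51 and 3.24 FPKM. The share of all genes higher by any amount was not computed. Of 9 erythroid markers 7 were higher in GFP-high cells by any amount, with sums of 119 and 42.1 FPKM. The adult haemoglobin genes *Hba-a1* and *Hbb-bs* had ratios of 2.92 and 2.78, although near-identical copies of these genes make their FPKM uncertain. *Slc4a1*, the anion exchanger of the red cell membrane, was at 0.8 and 0.01 FPKM. The 2 erythroid markers higher in GFP-low, as *Aqp1* was, were *Rhag* at 0.16 and 0.67 FPKM and *Epb4.2* at 0.13 and 0.46 FPKM. *Slc4a1*, *Rhag* and *Epb4.2* were each under 1 FPKM in both libraries. *Aqp1*, at −0.73, lay on the other side of 0 from the medians of both lists, 0.501 and 0.834. The part of vessel and red blood cells in the value of *Aqp1* was not tested.

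The markers of connective tissue, nerve sheath and vessel support cells were mostly higher in GFP-low. This direction was not particular to them. All 7 basal keratinocyte markers were also higher in GFP-low by any amount, with a median log2 difference of −0.377, although only 1 passed the rule. All 8 fibroblast markers were higher in GFP-low cells, 6 of the 7 at 5 FPKM or more by at least 1.5-fold, beside 8.9% of all genes, with sums of 475 and 2286 FPKM. The collagen gene *Col1a1* had 34.4 and 172 FPKM, and *Postn*, which encodes the matrix protein periostin, had 41.6 and 436 FPKM. All 7 Schwann lineage markers were higher in GFP-low cells by any amount, 5 of the 6 at 5 FPKM or more by at least 1.5-fold. Their sums were 89.7 and 311 FPKM. The smallest difference among them was that of *Erbb3*, at 60.3 and 66.9 FPKM. Of 8 pericyte and smooth muscle markers 7 were higher in GFP-low cells by any amount, with sums of 84.3 and 126 FPKM. The exception was *Notch3* at 57.04 and 38.05 FPKM. Of the 4 at 5 FPKM or more, 3 passed the rule in the GFP-low direction, beside the same 8.9% of all genes. *Acta2*, smooth muscle actin, had 16.3 and 49.5 FPKM. The part of these cell types, basal keratinocytes included, in the value of *Aqp1* was not tested. In bulk RNA a change in the number of cells and a change in RNA per cell cannot be told apart.

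**Figure D3:**
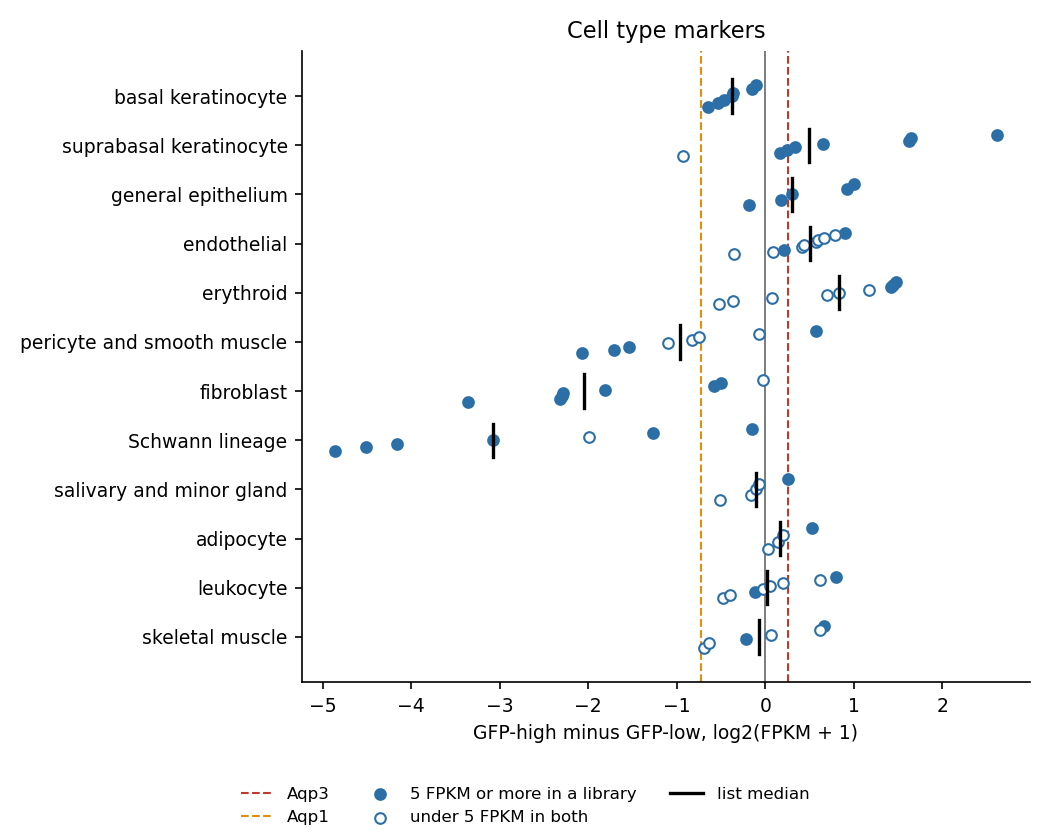
Difference between the populations (GFP-high minus GFP-low, log2(FPKM + 1)) for each marker gene above 0 in 12 cell type lists, filled at 5 FPKM or more in a library, with list medians as black bars. The dashed line of *Aqp1*, at −0.73, lies left of 0, as do the fibroblast, Schwann, pericyte, basal keratinocyte, salivary and skeletal muscle medians. The endothelial and erythroid medians, among others, lie right of 0. The line of *Aqp3*, at 0.25, lies between the basal and suprabasal medians.

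Most markers of the cell types known for the other aquaporins were low or listed at 0. Of 10 salivary and minor gland markers, 5 (*Dcpp1*, *Pip*, *Prol1*, *Bpifa2* and *Muc5b*) were listed at 0 in both libraries, and 1, *Kit*, which is also made by other cells, reached 5 FPKM. *Bhlha15*, a transcription factor of secretory acinar cells, had 0.51 and 0.63 FPKM. Of 6 adipocyte markers, *Cidec* and *Lep* were listed at 0 in both, *Adipoq*, the fat cell hormone adiponectin, had 0.17 and 0.06 FPKM, and *Fabp4*, a lipid carrier also found in vessels, was at 10.5 and 6.95 FPKM. The 8 leukocyte markers summed to 28.6 and 25.8 FPKM, mostly from *Cd68* and the neutrophil genes *S100a8* and *S100a9*, which epithelial cells also make, while *Ptprc*, the pan-leukocyte surface gene, was at 0.06 and 0.02 FPKM. The 6 skeletal muscle markers ranged from 0.39 to 8.58 FPKM. The part of these cells in the low values of *Aqp4*, *Aqp5*, *Aqp7* and *Aqp9* was not tested.

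Genes that handle glycerol, the solute of AQP3, were expressed in both populations and several were higher in GFP-high cells. Of 12 genes for glycerol use and release, 11 reached 5 FPKM, 5 of those passed the 1.5-fold rule in the GFP-high direction and none in the GFP-low direction, beside 9.48% and 8.9% of all genes. *Gyk*, glycerol kinase, had 54.7 and 26.8 FPKM, a ratio of GFP-high to GFP-low of 2.05. *Dgat2*, which makes triglyceride, had 133 and 52.1 FPKM, a ratio of 2.56. *Plin2*, a coat protein of lipid droplets, had 134 and 36.7 FPKM, the largest ratio of the list at 3.64. *Mgll*, which releases glycerol from monoglycerides, and *Pld1*, a phospholipase D, had ratios of 1.84 and 1.79. *Pld2*, the phospholipase D found in complex with AQP3 in keratinocytes, had 59.6 and 47.5 FPKM, a ratio of 1.26, below 1.5-fold. By any amount 2 genes of the list were higher in GFP-low, *Dgat1* at 28.7 and 33.8 FPKM and *Gpd1* at 1.02 and 1.31 FPKM. *Pnpla2*, *Lipe* and *Gpd2* had ratios of 1.08, 1.03 and 1.10. The median log2 difference of the list was 0.34.

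The epithelial sodium channel was higher in GFP-high cells. Of 10 genes for epithelial ion transport, 8 reached 5 FPKM and 3 of those passed the rule in the GFP-high direction, beside 9.48% of all genes, with a list median of 0.576. The 3 were the subunits of the epithelial sodium channel. *Scnn1a* had 77.8 and 48.8 FPKM, *Scnn1b* had 10.8 and 3.56 FPKM and *Scnn1g* had 6.35 and 2.39 FPKM, with ratios of 1.59, 3.04 and 2.66, of which that of *Scnn1a* was under 1.5 on the TPM scale, while *Scnn1b* and *Scnn1g* are under 5 FPKM in GFP-low and do not pass if both libraries must reach it.

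Several genes of cell volume control were higher in GFP-low cells. Of 14 such genes, 13 reached 5 FPKM, none passed the rule in the GFP-high direction and 4 did in the GFP-low direction, beside 9.48% and 8.9% of all genes, with a list median of −0.286. *Trpv4*, an osmosensitive cation channel, had 25.99 and 56.9 FPKM, a ratio of GFP-low to GFP-high of 2.19. *Lrrc8d*, a subunit of the volume-regulated anion channel, had 23.7 and 44.1 FPKM, a ratio of 1.86. The potassium-chloride and sodium-potassium-chloride cotransporters *Slc12a4* and *Slc12a2* had ratios of 1.64 and 1.51, the latter under 1.5 once GFP-low was multiplied by 0.973, the median ratio over genes at 5 FPKM or more in both. The obligatory channel subunit *Lrrc8a* (18.9 and 16.4 FPKM) and the kinase *Wnk1* (354 and 313 FPKM) did not reach 1.5-fold. Of the 5 membrane anchors of AQP4, *Dmd*, which encodes dystrophin, was at 4.91 and 16.9 FPKM and *Sntb1*, a syntrophin, at 18.5 and 12.3 FPKM, and both passed the rule, *Sntb1* not on the TPM scale and *Dmd* not with 5 FPKM asked of both libraries. *Aqp4* itself was at 0.12 and 0.05 FPKM.

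**Figure D4:**
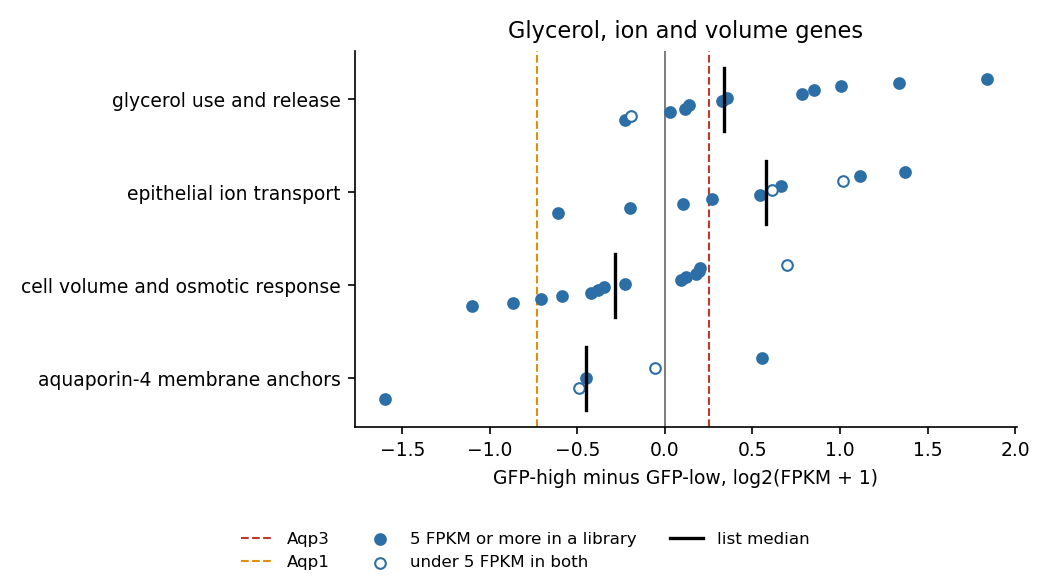
Difference between the populations (GFP-high minus GFP-low, log2(FPKM + 1)) for each gene of the 4 lists on glycerol, ion transport, cell volume and AQP4 anchors, filled at 5 FPKM or more in a library, with list medians as black bars and the values of *Aqp3* (0.25) and *Aqp1* (−0.73) as dashed lines. The glycerol and ion channel medians, 0.34 and 0.576, lie right of 0 and the cell volume and anchor medians, −0.286 and −0.449, lie left of it.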

How the data were processed

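RNA of the GFP-high and GFP-low populations was sequenced as 1 stranded mRNA library each. The authors trimmed single-end reads with Trimmomatic 0.36, mapped them to mm10 with GSNAP and obtained FPKM with Cufflinks 2.2.1, and the deposited FPKM are rounded to 2 decimals. The FPKM columns are named means, and each was read as 1 library. The gene annotation and any use of strand in counting are not given in the sources used here. The deposited fold column of the authors' own comparison was not used.

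Ratios were computed from the deposited FPKM in Python 3.11.15 with pandas 2.3.3, and none against an FPKM of 0. Lists were summarised as medians of log2(FPKM + 1) over members above 0. Of 21628 entries, 21 with another type than protein-coding in GENCODE M21 were removed, and 17 without a number in a library were not compared. The columns assigned to no sample number 0.

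The labels give about 75000000 reads per sample, the depth first used for approximate reads. Depth was also sought from low FPKM of genes with 1 transcript of 400 to 2500 nt, less 200 nt, as the depth at which most values lay within 0.15 of a whole read. This held for 55.7% of 388 values in GFP-high and 50.8% of 360 in GFP-low cells, and 30% would do so at a depth fixed beforehand. The best of many depths was taken, and rounding to 2 decimals blurs the steps more at larger depths. The scan therefore cannot decide against the labelled depth. Approximate reads take off 200 nt of transcript and carry no error. Positions, boxes (the first 2 matches per protein to asparagine-proline with alanine, cysteine, serine or threonine, or asparagine-alanine-alanine), 50-nt windows shared with other transcripts and identities (Biopython 1.88, global alignment, BLOSUM62) were computed from GENCODE M21 transcripts. Protein sequences were not used here beyond these translations.

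The members and lists were chosen with earlier results of these data known, and genes are named by membership, by passing the rule, or because a result turns on them. Some list members are not reported here. The 3 genes nearest in level were named for each aquaporin at 5 FPKM or more. The procedure was tested on simulated data.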

Additional observations from a re-analysis of the deposited data

How the results depend on the processing

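Ratios of the aquaporins were recomputed with 1 or 0.1 added to each FPKM, on the TPM scale and with GFP-low multiplied by the median ratio of GFP-high to GFP-low. Aquaporin counts were recomputed with minimums of 5 FPKM in both libraries, 1 FPKM, 10 FPKM or none, a 2-fold minimum and both scalings, and counts of the other lists with 1 FPKM, 2-fold, both scalings and, chosen after seeing the data, 5 FPKM in both libraries. The ratio of *Aqp3* and that of *Aqp1* kept their direction and moved by less than 1.5 times under the 4 alternatives run for ratios. No direction of an aquaporin ratio was reversed under them. Adding the same number to both libraries cannot reverse a ratio, and the scalings shift all ratios alike by a small factor. The kept directions are therefore no evidence of stability. Of 24 alternatives 2 moved a ratio by more than 1.5 times, both for *Aqp4*. The count of aquaporins past the rule was 0 in the GFP-low direction with a minimum of 10 FPKM and with a 2-fold minimum, since *Aqp1* is at 9.43 FPKM and 1.79-fold. Without an FPKM minimum it was 1 in the GFP-high direction, *Aqp4*. Counts of the other gene lists moved by more than 1.5 times in 33 of 170 alternatives, and list medians moved in 5 of 50. For the glycerol list 3 genes passed a 2-fold minimum in the GFP-high direction. For the endothelial list 7 passed in that direction with a minimum of 1 FPKM and 0 on the TPM scale. With a minimum of 1 FPKM, 1 endothelial gene passed in the GFP-low direction. The share of all genes passing at these 3 settings is not given here, so no excess is read from these counts. With 5 FPKM in both libraries the ion transport list had 1 gene past the rule in the GFP-high direction and the Schwann list 1 in the GFP-low direction, against 3 and 5. The approximate reads of the low aquaporins depended on the depth taken, with 9 of 10 values moving by more than 1.5 times. The FPKM carry no counting error, and 1 library per population gives no replicate error, so ratios of the members under 1 FPKM cannot be told from counting noise. No replicate could be left out. No paired analysis was possible because each population has 1 library.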
